A study of Pseudotsuga menziesii with 10 samples.

Results

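The presence of pollen was compared with its absence in developing seeds of Douglas-fir (Pseudotsuga menziesii), at a stage before fertilization and at one around it. The comparison uses 4 of the 10 libraries of the series, chosen by their labels: pollinated and unpollinated megagametophytes of 10 June and pollinated and unpollinated megagametophytes of 22 June 2011. All came from ramets of 1 clone, genotype 970, grown in a seed orchard. Cones were emasculated and bagged before anthesis, and a random part of the bags was given a pollen mix of 6 genotypes on 9 May, while the rest was left without pollen. Each library is a pool of 200 to 400 dissected megagametophytes, so each date has 1 library a side and shows nothing of the variation between trees, cones or seeds. Per the labels, 10 June was the time of corrosion cavity formation and 22 June that of fertilization. The labels give the pollinated pools as megagametophyte with embryo on both dates, thus also before the date they tie to fertilization, and the share of ovules that had been fertilized is not given. The other 6 libraries, used here only as a reading of the same contigs elsewhere, are pollinated and unpollinated megagametophytes of 30 June and 6 July and the scales and bracts of cones of the same clone, collected on 26 May.

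The megagametophyte is the haploid female tissue of a conifer seed. It carries the egg cells, later surrounds and feeds the embryo, and in Douglas-fir it enlarges even where no pollen has reached the ovule. The corrosion cavity is the space that opens within it and into which the embryos grow. Pollen of Douglas-fir is taken in by the ovule weeks before fertilization, and an ovule without pollen ends as an empty seed. Transcript levels are given in FPKM (fragments per kilobase of contig and per unit of sequenced fragments) for contigs, the assembled transcripts of the study. The files do not pair contigs with gene names, so contigs carry their identifiers and no gene families are described.

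The table held 54889 contigs. Those at 10 FPKM or more numbered 8706 in the pollinated and 8815 in the unpollinated library of 10 June, and 8738 in the pollinated and 8468 in the unpollinated library of 22 June. The number of reads behind each library is unknown. Tissue was checked with contigs chosen in the other 6 libraries. Of 189 contigs at 10 FPKM or more in all 4 later megagametophyte libraries and under 1 FPKM in scales and bracts, 178 in pollinated and 162 in unpollinated megagametophytes were at 1 FPKM or more on 10 June, and 181 in pollinated and 185 in unpollinated ones on 22 June. Of 387 contigs at 10 FPKM or more in scales and bracts and under 1 FPKM in the later megagametophytes, 42 in pollinated and 73 in unpollinated megagametophytes reached 1 FPKM on 10 June, and 26 in pollinated and 22 in unpollinated ones on 22 June. Their summed level was 407.5 FPKM in the pollinated and 545.6 FPKM in the unpollinated library on 10 June, 208.0 FPKM (pollinated) and 165.5 FPKM (unpollinated) on 22 June, and 16690 FPKM in scales.

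On each date the pollinated and unpollinated libraries were close for most contigs. A contig was counted as different when it was 2-fold or more apart on the log2(FPKM + 1) scale and at 10 FPKM or more in the higher library. On 10 June 93.3% of the 9631 contigs that reached 10 FPKM were within 2-fold, and on 22 June 93.1% of 9386. On 10 June 385 contigs (4.0%) were higher and 258 (2.68%) lower in pollinated megagametophytes. On 22 June 488 contigs (5.20%) were higher and 157 (1.67%) lower. With 1 library a side these counts compare libraries and carry no test, and in pools a smaller share of a cell type cannot be told apart from less RNA per cell. The majority on 10 June turned with the level asked for: at 1 FPKM or more in the higher library 2146 contigs were higher and 2622 lower in pollinated megagametophytes, while on 22 June the counts were 1913 higher and 1432 lower.

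The imbalance of 22 June was widest among abundant contigs. Of 896 contigs that reached 100 FPKM on 22 June, 64 were higher and 4 lower in pollinated megagametophytes. On 10 June 26 of 977 such contigs were higher and 12 lower. Between 10 and 30 FPKM the counts were 299 higher and 131 lower on 22 June, and 262 higher and 188 lower on 10 June. The median difference over all contigs of a date, pollinated minus unpollinated, was -0.05 log2 units on 10 June and 0.04 on 22 June.

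**Figure D1:**
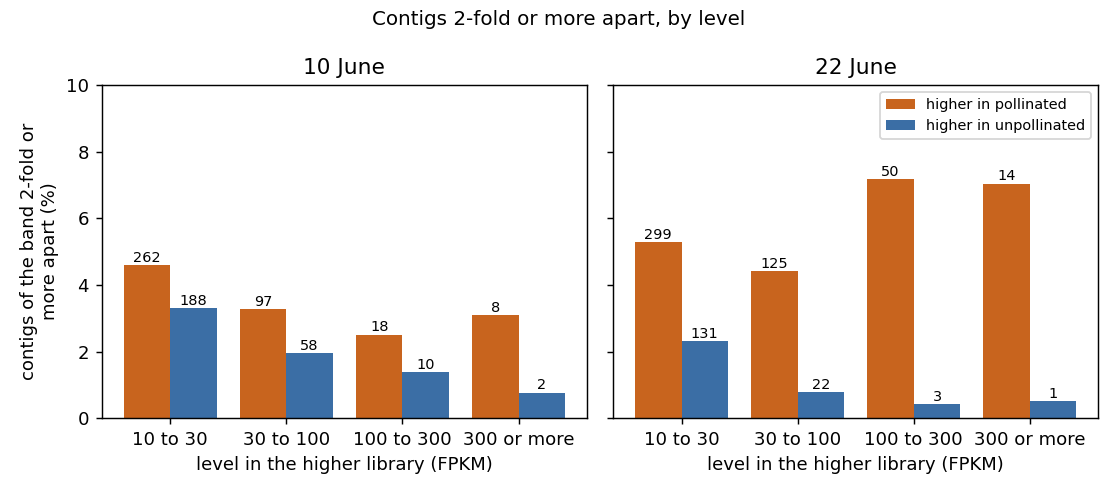
Share of contigs 2-fold or more apart (%, vertical axis, numbers of contigs above the bars) in 4 bands of the level in the higher library (FPKM), for 10 June and 22 June, with contigs higher in pollinated megagametophytes left of those higher in unpollinated ones. At 100 FPKM or more on 22 June, 64 contigs were higher and 4 lower in pollinated megagametophytes.

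The contigs higher in pollinated megagametophytes on 10 June stood, in the median, above the unpollinated level of that day in both states on every later date. The median level of the 385 contigs was 19.4 FPKM in the pollinated and 4.54 FPKM in the unpollinated library on 10 June, and 23.9 FPKM (pollinated) and 25.2 FPKM (unpollinated) on 22 June. On 30 June it was 23.6 FPKM in the pollinated and 25.5 FPKM in the unpollinated library. Over all 9631 contigs that reached 10 FPKM on 10 June, the median was 21.3 FPKM in the pollinated and 20.0 FPKM in the unpollinated library on 22 June. The 385 contigs made up 2.97% of all FPKM in the pollinated and 0.659% in the unpollinated library of 10 June, and 6.50% (pollinated) and 7.11% (unpollinated) on 22 June. Their order and shares on 10 June are set by the choice, which also favours later levels above that unpollinated library. Against the pollinated library of 10 June, the mean of the 2 states on 22 June differed by a median of 0.445 log2 units for the 385. For all 9631 contigs this median was -0.085. Of the 26 at 100 FPKM or more, 20 had both levels of 22 June above both levels of 10 June. The same count was not made for all 977 contigs that reached 100 FPKM on 10 June.

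The naming rule takes 1 contig each for the largest difference and for the highest level. GAZW02024469 stood at 55.9 FPKM in the pollinated and 0.0425 FPKM in the unpollinated library on 10 June, a difference of 5.77 log2 units. It was level on 22 June, at 15.7 FPKM in the pollinated and 15.1 FPKM in the unpollinated library, and on both later dates it was near 0 in the pollinated library only (0.0353 FPKM against 10.1 FPKM in the unpollinated one on 30 June, and 0.0353 FPKM against 9.48 FPKM on 6 July). GAZW02016630, the most abundant, stood at 831 FPKM in the pollinated and 213 FPKM in the unpollinated library on 10 June. On 22 June it stood at 1884 FPKM (pollinated) and 1595 FPKM (unpollinated), and later at 981 to 1208 FPKM in both states, so its gap was seen on the first date alone.

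In the other direction the 258 contigs lower in pollinated megagametophytes on 10 June had a median of 5.36 FPKM in the pollinated and 17.8 FPKM in the unpollinated library. Their median was 8.68 FPKM in the pollinated and 7.37 FPKM in the unpollinated library on 22 June, and 5.37 to 7.0 FPKM in the 4 later libraries. These contigs were chosen as higher in the unpollinated library of 10 June, so their order on that date is set by the choice. GAZW02094052 stood at 0.0644 FPKM in the pollinated and 54.7 FPKM in the unpollinated library on 10 June, the widest gap in this direction, at -5.71 log2 units. GAZW02022487, the most abundant of the 258, stood at 2451 FPKM in the pollinated and 4972 FPKM in the unpollinated library. Its difference of -1.02 log2 units was close to the 2-fold limit. Under quantile normalization, which makes the highest contigs of the libraries equal, the difference was 0.0. On 22 June this contig was level, at 1697 FPKM (pollinated) and 1551 FPKM (unpollinated).

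Contigs higher in pollinated megagametophytes on 22 June were of another kind. They were abundant in both states on 10 June and scarce in both on 30 June, and on 22 June they stood higher in the pollinated library by the choice. The median level of the 488 contigs was 49.4 FPKM in the pollinated and 49.2 FPKM in the unpollinated library on 10 June, 22.4 FPKM (pollinated) and 5.87 FPKM (unpollinated) on 22 June, 0.454 FPKM (pollinated) and 1.24 FPKM (unpollinated) on 30 June, and 0.266 FPKM (pollinated) and 0.434 FPKM (unpollinated) on 6 July. Their share of all FPKM was 11.7% in the pollinated and 12.4% in the unpollinated library of 10 June, 5.36% (pollinated) and 1.61% (unpollinated) on 22 June, and 0.578% (pollinated) and 0.816% (unpollinated) on 30 June. Measured without any library of 22 June, 366 of the 488 (75%) were 2-fold or more lower on 30 June than on 10 June, against 1692 of all 9386 contigs that reached 10 FPKM on 22 June (18.0%). Scales and bracts were both under 1 FPKM for 239 of the 488 (49.0%), against 9.93% of the 9386.

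The abundant members show the same order of levels. All 64 at 100 FPKM or more stood between 101 and 1135 FPKM in the pollinated library of 22 June, and their medians were 160.5 FPKM in the pollinated and 50.8 FPKM in the unpollinated library. On 10 June 62 of the 64 had at least 100 FPKM in each state, and on 30 June 57 were under 10 FPKM in both. These counts were not made for all 896 contigs that reached 100 FPKM on 22 June. GAZW02088446 stood at 1551 FPKM in the pollinated and 1640 FPKM in the unpollinated library on 10 June, at 1135 FPKM (pollinated) and 204 FPKM (unpollinated) on 22 June, and at 0.717 FPKM (pollinated) and 7.17 FPKM (unpollinated) on 30 June. Its difference on 22 June was 2.47 log2 units. On 30 June it was lower in the pollinated library.

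GAZW02097350 had the widest gap of 22 June, at 48.2 FPKM in the pollinated and 0.0425 FPKM in the unpollinated library, a difference of 5.56 log2 units. It did not follow the course of the 488. Its levels were 26.7 FPKM in the pollinated and 21.8 FPKM in the unpollinated library on 10 June, and 149 FPKM (pollinated) and 37.3 FPKM (unpollinated) on 30 June. It was the higher in pollinated megagametophytes on 4 of 4 dates, but within 2-fold on 10 June (0.28 log2 units) and 6 July (0.42).

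The 157 contigs lower in pollinated megagametophytes on 22 June had a median of 5.06 FPKM in the pollinated and 15.9 FPKM in the unpollinated library of that date. On 10 June their medians were 7.57 FPKM in the pollinated and 6.57 FPKM in the unpollinated library, and on 30 June 12.3 FPKM (pollinated) and 10.5 FPKM (unpollinated). From 10 to 30 June 50 of the 157 (31.8%) were 2-fold or more higher and 19 (12.1%) lower, against 20.0% higher and 18.0% lower among all contigs that reached 10 FPKM on 22 June. GAZW02102106 stood at 0.0425 FPKM in the pollinated and 28.7 FPKM in the unpollinated library on 22 June, a difference of -4.83 log2 units. It was near 0 in both libraries of 10 June and stood at 43.0 FPKM in the pollinated and 22.1 FPKM in the unpollinated library on 30 June. GAZW02020438, the most abundant, stood at 33.1 FPKM in the pollinated and 301 FPKM in the unpollinated library on 22 June, and at 54.7 FPKM (pollinated) and 354 FPKM (unpollinated) on 10 June.

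**Figure D2:**
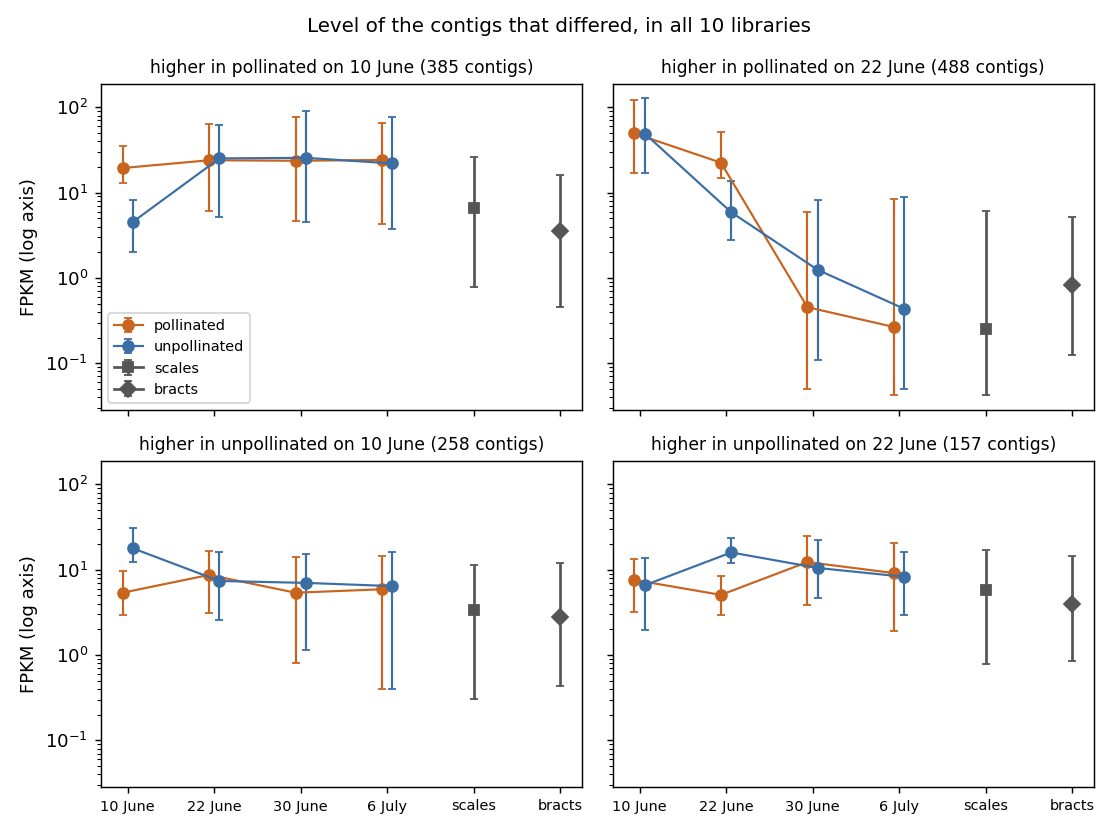
Median level (FPKM, log axis, bars from the 25th to the 75th percentile over contigs) of the contigs higher in pollinated megagametophytes (upper panels) and in unpollinated megagametophytes (lower panels) on 10 June (left) and 22 June (right), in all 10 libraries. The 488 contigs of the upper right panel stood near 49 FPKM in both states on 10 June and parted on 22 June at 22.4 FPKM in the pollinated and 5.87 FPKM in the unpollinated library.

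On the later dates each of the 4 sets held contigs in both directions. Among the 488 and the 258 more were lower than higher on both later dates, and among the 157 more were higher. On 30 June 459 of 9690 contigs (4.74%) were higher and 478 (4.93%) lower in pollinated megagametophytes, and on 6 July 431 of 9639 (4.47%) were higher and 393 (4.08%) lower. Of the 385 contigs higher in pollinated megagametophytes on 10 June, 279 reached 10 FPKM on 30 June, with 25 higher and 41 lower, and 272 on 6 July, with 26 higher and 25 lower. Of the 488 of 22 June only 123 reached that level on 30 June, with 15 higher and 42 lower, and 136 on 6 July, with 17 higher and 28 lower. Of the 258 contigs lower on 10 June, 119 reached 10 FPKM on 30 June, with 11 higher and 25 lower, and 117 on 6 July, with 17 higher and 27 lower. For the 157 lower on 22 June these counts were 109, with 21 higher and 16 lower, and 91, with 21 higher and 13 lower.

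Few scale and bract contigs reached the level needed to be counted, and their list was chosen for low levels in the later megagametophytes. Of the 387, 8 reached 10 FPKM on 10 June, none of them higher and 1 lower in pollinated megagametophytes, and 5 did on 22 June, 2 of them higher. Among all contigs 643 of 9631 differed on 10 June and 645 of 9386 on 22 June. With 8 and 5 contigs the shares cannot be compared. Of the 189 late megagametophyte contigs, 116 reached 10 FPKM on 10 June, with 16 higher and 2 lower in pollinated megagametophytes, beside 385 higher and 258 lower of all 9631. On 22 June 149 did, with 6 higher and 2 lower, beside 488 higher and 157 lower of all 9386. What part sporophyte tissue in the pools had in any single contig was not tested.

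Some contigs were found in one state and were close to absent in the other. Of the 9631 contigs that reached 10 FPKM on 10 June, 76 stood at that level in pollinated and under 1 FPKM in unpollinated megagametophytes. Their median was 18.1 FPKM in the pollinated library, and 44 contigs showed the reverse. On 22 June, of 9386 contigs, 70 were found in pollinated megagametophytes in this way, with a median of 14.7 FPKM, and 23 in unpollinated ones. Of the 76 contigs of 10 June 44 had at least 1 FPKM in each state on 22 June, 2 had the same pattern there and 2 had the reverse. Of the 70 contigs of 22 June 51 had at least 1 FPKM in each state on 10 June. Among those at 10 FPKM or more in unpollinated megagametophytes alone, 28 of the 44 of 10 June and 5 of the 23 of 22 June did so on the other date. How many of all contigs did so was not counted, so these counts carry no comparison.

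The 2 dates shared few contigs. Of 7803 contigs that reached 10 FPKM on both dates, 15 (0.192%) were higher and 16 (0.205%) lower in pollinated megagametophytes on both, while 13 (0.167%) were higher on 10 June and lower on 22 June and 18 (0.231%) lower and then higher. The same direction on both dates was thus seen for 31 contigs, and opposite directions for 31 as well. These came from 643 contigs of 10 June and 645 of 22 June. Under 10 FPKM on the other date were 232 of the 643 and 150 of the 645. Thus 411 and 495 could be counted, which are 5.27% and 6.34% of the 7803. By direction, 279 of the 7803 were higher and 132 lower on 10 June. On 22 June 15 of the 279 were higher and 13 lower, and 18 of the 132 were higher and 16 lower. Beside these stand 414 higher and 81 lower of all 7803 on 22 June. Whether any of these overlaps exceeds chance was not tested. Of the 385 contigs higher in pollinated megagametophytes on 10 June, 327 were within 2-fold on 22 June, and of the 488 of 22 June 433 were within 2-fold on 10 June. Among all contigs that reached 10 FPKM on a date, 93.1% were within 2-fold on 22 June and 93.3% on 10 June. The 327 and the 433 also include contigs under 10 FPKM on the other date. Across the 7803 contigs the differences of the 2 dates had a correlation of r = -0.023 (Spearman -0.050), and 45.7% had the same sign on both. The dates have no library in common, but contigs of a library share its preparation and depth, and the correlation is given as a description.

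**Figure D3:**
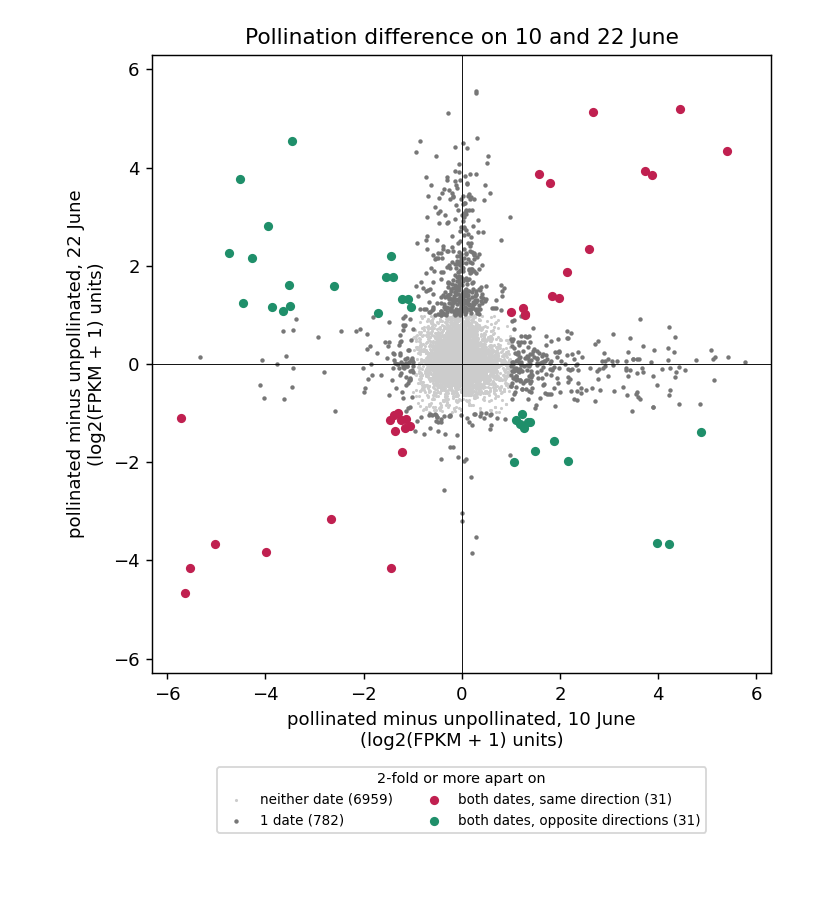
Pollinated minus unpollinated on 22 June (vertical axis) against the same on 10 June (horizontal axis), in log2(FPKM + 1) units, for the 7803 contigs at 10 FPKM or more on both dates. Most points past 2-fold lie along the axes, with 31 contigs past 2-fold in the same direction on both dates (red) and 31 in opposite directions (green).

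Among the 15 contigs higher in pollinated megagametophytes on both dates, 6 were 4-fold or more apart on both. GAZW02094053 stood at 50.6 FPKM in the pollinated and 1.36 FPKM in the unpollinated library on 10 June, and at 37.3 FPKM (pollinated) and 0.0425 FPKM (unpollinated) on 22 June. It was also higher in pollinated megagametophytes on both later dates. GAZW02052853 stood at 43.0 FPKM in the pollinated and 0.0353 FPKM in the unpollinated library on 10 June, and at 20.0 FPKM (pollinated) and 0.0353 FPKM (unpollinated) on 22 June. By 6 July it stood at 10.3 FPKM in the pollinated and 6.57 FPKM in the unpollinated library.

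Of the 16 contigs lower in pollinated megagametophytes on both dates, 5 were 4-fold or more apart on both. GAZW02068511 stood at 1.2 FPKM in the pollinated and 108 FPKM in the unpollinated library on 10 June, and at 0.717 FPKM (pollinated) and 42.4 FPKM (unpollinated) on 22 June. It was under 1 FPKM in every other library. GAZW02052852 stood at 0.0425 FPKM in the pollinated and 47.2 FPKM in the unpollinated library on 10 June, and at 0.0425 FPKM (pollinated) and 17.6 FPKM (unpollinated) on 22 June. Both later dates had the same sign as 10 June for 3 of the 15 and 4 of the 16, and for 5 of the 13 and 9 of the 18 contigs that turned between 10 and 22 June.

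Of the contigs that turned between the dates, 2 of the 13 that were higher on 10 June and 5 of the 18 that were lower were 4-fold or more apart on both. At 50 FPKM or more none turned, and 6 had the same direction. These came from 83 contigs that differed at that level on 10 June and 135 on 22 June. Among the 6 were GAZW02020438, GAZW02020440 and GAZW02094052, whose sums with neighbouring contigs are given below. Whether this overlap exceeds chance was not tested. GAZW02021741 stood at 19.7 FPKM in the pollinated and 0.110 FPKM in the unpollinated library on 10 June, and at 0.0425 FPKM (pollinated) and 12.2 FPKM (unpollinated) on 22 June. GAZW02069369 stood at 18.2 FPKM in the pollinated and 0.223 FPKM in the unpollinated library on 10 June, and at 0.0353 FPKM (pollinated) and 11.9 FPKM (unpollinated) on 22 June. The reverse order was seen for GAZW02069368, at 0.0497 FPKM in the pollinated and 23.1 FPKM in the unpollinated library on 10 June and at 13.1 FPKM (pollinated) and 0.0425 FPKM (unpollinated) on 22 June. It was seen too for GAZW02068526, at 0.0425 FPKM in the pollinated and 10.5 FPKM in the unpollinated library on 10 June and at 31.9 FPKM (pollinated) and 0.414 FPKM (unpollinated) on 22 June.

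**Figure D4:**
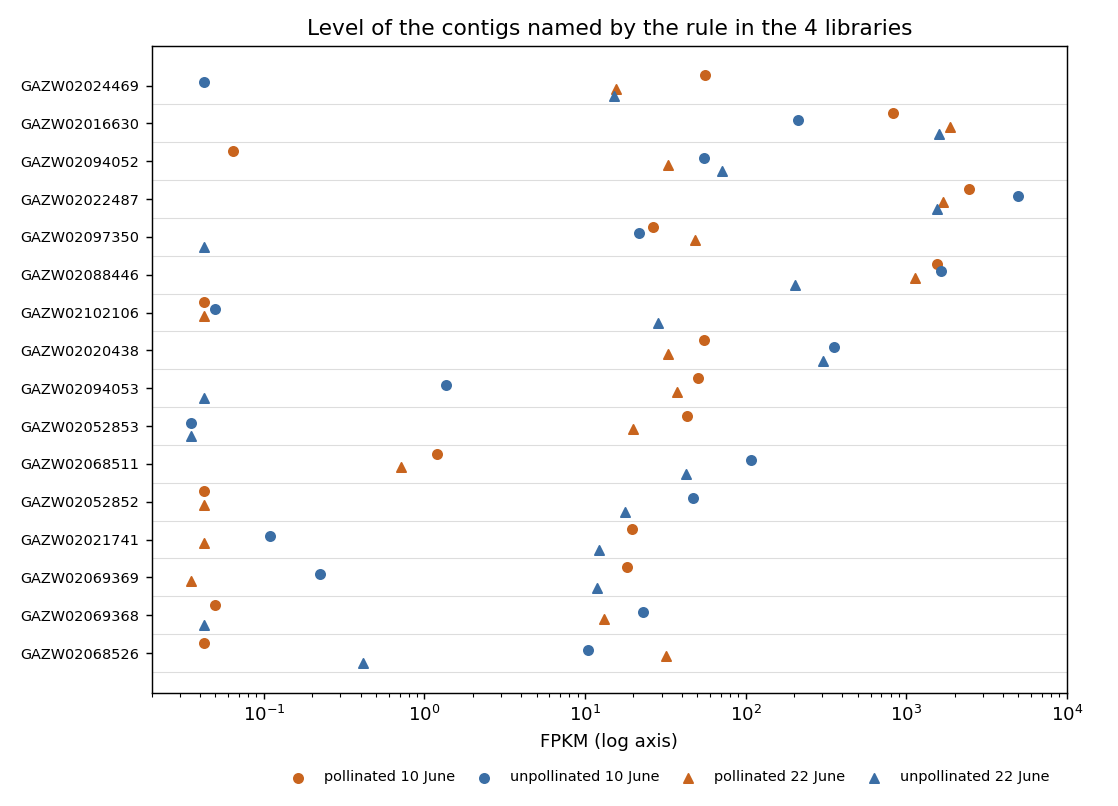
Level (FPKM, log axis) of the 16 contigs named for single dates and for both dates in the 4 libraries, with circles for 10 June, triangles for 22 June, orange for pollinated and blue for unpollinated megagametophytes. Points near 0.04 FPKM, such as the unpollinated libraries of GAZW02052853, lie at the low end of the table.

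Some of these contigs had a partner with a neighbouring number that differed the other way. Within 5 numbers this held for 10 of the 31 contigs with the same direction on both dates and for 4 of the 31 that turned. Whether contigs with neighbouring numbers belong to 1 gene is not given in the files, and this property was looked at after the data were examined. On 10 June 33 pairs of contigs with consecutive numbers were 2-fold or more apart in opposite directions, made up of 63 of the 643 contigs, and on 22 June 26 pairs, made up of 51 of the 645. The sum of the 2 contigs was within 2-fold between the states in 32 of the 33 pairs and in 26 of the 26. In absolute size the median difference was 2.95 log2 units for the single contigs and 0.196 for the sums on 10 June, and 3.52 and 0.131 on 22 June. Opposite directions by themselves bring a sum nearer to equality. Pairs in opposite directions that lay 20 to 100 numbers apart had a sum within 2-fold in 134 of 166 cases on 10 June and 135 of 169 on 22 June. Their median differences were 1.62 log2 units for the single contigs and 0.485 for the sums on 10 June, and 1.46 and 0.427 on 22 June. No test was made of consecutive against distant pairs. Of the consecutive pairs, 4 had the same arrangement on both dates, and 1 pair was turned round.

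GAZW02052853 and GAZW02052852 form such a pair. Their sum was 43.1 FPKM in the pollinated and 47.2 FPKM in the unpollinated library on 10 June, and 20.0 FPKM (pollinated) and 17.7 FPKM (unpollinated) on 22 June, while each contig alone was near 0 in one state. The sum of GAZW02094053 and GAZW02094052 was 50.7 FPKM in the pollinated and 56.1 FPKM in the unpollinated library on 10 June, and 70.4 FPKM (pollinated) and 71.5 FPKM (unpollinated) on 22 June. GAZW02020438 and the contig 2 numbers above it summed to 358 FPKM in the pollinated and 403 FPKM in the unpollinated library on 10 June, and to 367.5 FPKM (pollinated) and 366 FPKM (unpollinated) on 22 June. GAZW02069368 and GAZW02069369, the pair that was turned round, summed to 18.2 FPKM in the pollinated and 23.3 FPKM in the unpollinated library on 10 June and to 13.2 FPKM (pollinated) and 11.9 FPKM (unpollinated) on 22 June. In these 4 pairs the states differed in which contig held most of the level, while the sums differed by 0.34 log2 units or less. The pollinated library of 22 June was split nearly evenly between GAZW02094053 and GAZW02094052, at 37.3 FPKM and 33.1 FPKM. For GAZW02068526 and the contig 4 numbers above it the sums differed more, by 0.47 log2 units on 10 June and -0.25 on 22 June.

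GAZW02024469 and the contig with the preceding number summed to 56.2 FPKM in the pollinated and 50.7 FPKM in the unpollinated library on 10 June. The sum of GAZW02097350 and the contig that follows it was 109 FPKM in the pollinated and 158 FPKM in the unpollinated library on 22 June. The abundant contigs GAZW02016630, GAZW02022487 and GAZW02088446 had no contig within 5 numbers that differed in the opposite direction.

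The share with opposite neighbours was smaller at larger distances between numbers. On 10 June 11% of the contigs that differed and had a contig 1 number away in the table had one there that differed in the opposite direction, 3.25% at 2 numbers and 0.378% at 10 numbers. Neighbours in the same direction were found for 4.87%, 7.41% and 1.51%. On 22 June opposite neighbours were found for 8.81%, 4.23% and 0.375%, and same-direction neighbours for 14%, 8.82% and 1.5%. When levels were summed with those of all contigs up to 5 numbers away, a rule set after the data were examined, 2 of the 31 contigs with the same direction on both dates stayed 2-fold or more apart. Of the 385 and 258 contigs of 10 June 95 and 29 did, and of the 488 and 157 of 22 June 151 and 18. A sum over 11 numbers can also join unrelated contigs, and an abundant one then sets the total.

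**Figure D5:**
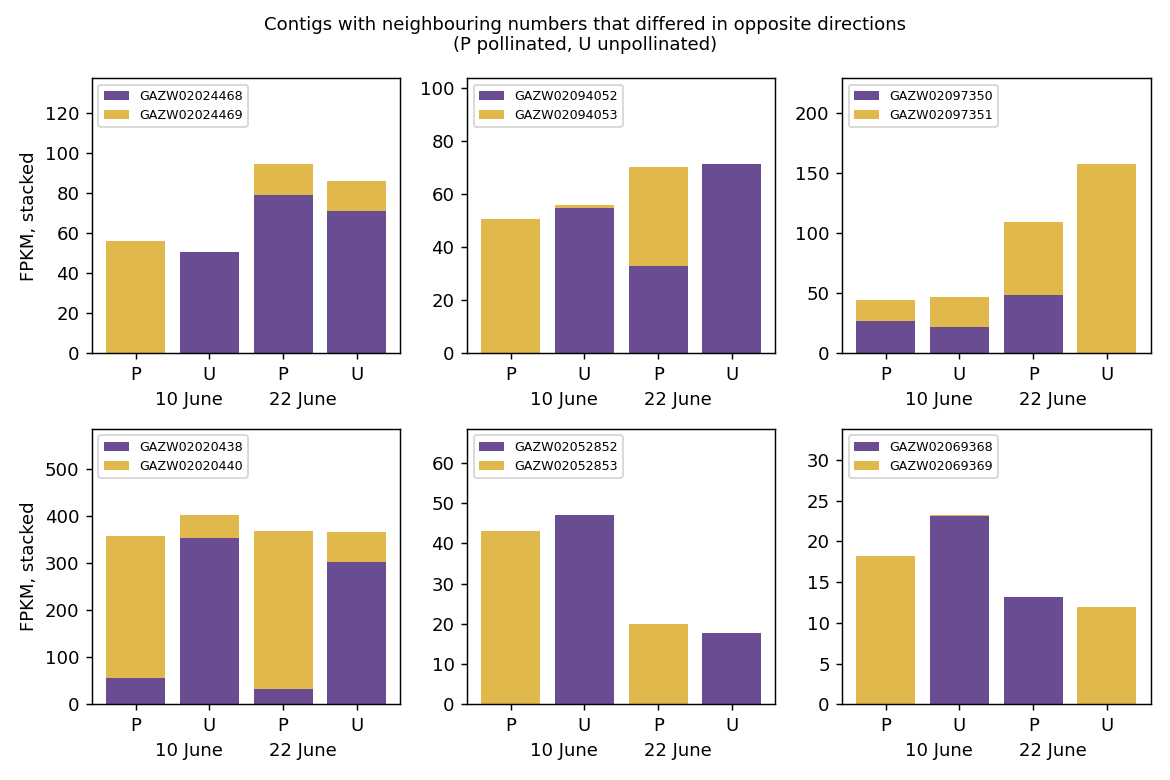
Levels (FPKM, stacked bars) of 6 pairs of contigs with neighbouring numbers in the pollinated (P) and unpollinated (U) libraries of 10 June and 22 June. In the pair GAZW02052852 and GAZW02052853 the bars of a date are nearly equal in height, at 43.1 FPKM (pollinated) and 47.2 FPKM (unpollinated) on 10 June, but consist of different contigs.

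The difference shared by the 2 dates was tested with limma, with date as a block, on the 26187 contigs whose mean over the 4 libraries was at least 1 FPKM. No contig passed (0%), and 800 had an unadjusted p under 0.05, 365 higher and 435 lower in pollinated megagametophytes, where 1309 would be expected by chance. The fit had 1 residual degree of freedom and a prior worth 2.36, and a single call would have needed an unadjusted p of 1.91e-06. The smallest was 0.000247. A count of 0 from this design therefore does not show that pollination had no effect common to both dates.

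The contigs nearest to the threshold follow, none of which passed. GAZW02094053 differed by 4.82 ± 0.29 (SE) log2 units and GAZW02041678 by 3.84 ± 0.23, higher in pollinated megagametophytes on 2 of 2 dates, both with limma adjusted p of 0.999. GAZW02041678 stood at 30.8 FPKM in the pollinated and 1.38 FPKM in the unpollinated library on 10 June and at 16.6 FPKM (pollinated) and 0.157 FPKM (unpollinated) on 22 June. The contig with the preceding number differed the other way, by -5.03 log2 units on 10 June and -3.67 on 22 June. Their sum was 30.9 FPKM (pollinated) and 36.9 FPKM (unpollinated) on 10 June, and 16.7 FPKM (pollinated) and 12.5 FPKM (unpollinated) on 22 June. GAZW02068511 differed by -5.14 ± 0.33 and GAZW02075775 by -3.90 ± 0.27 log2 units, lower on 2 of 2 dates, both with limma adjusted p of 0.999. GAZW02068503, whose number is close to that of GAZW02068511 but more than 5 away, differed the other way on both dates. It stood at 128.8 FPKM in the pollinated and 19.25 FPKM in the unpollinated library on 10 June. On 22 June its levels were 55.1 FPKM (pollinated) and 0.602 FPKM (unpollinated). GAZW02075775 stood at 0.0353 FPKM in the pollinated and 15.4 FPKM in the unpollinated library on 10 June and at 0.0425 FPKM (pollinated) and 13.7 FPKM (unpollinated) on 22 June. On the later dates GAZW02041678 was lower in pollinated megagametophytes, and GAZW02075775 was higher there on 30 June, at 25.5 FPKM, against 0.0425 FPKM in the unpollinated library.

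Whether the pollination difference itself differed between 22 and 10 June was tested in all 8 megagametophyte libraries, taking the error from the 2 later dates. In limma 0 of 27065 contigs passed (0%), and 2496 had an unadjusted p under 0.05, where 1353 would be expected by chance. Of these 1447 had the more positive difference on 22 June and 1049 on 10 June. This fit also had 1 residual degree of freedom, and it assumes that the difference is the same on 30 June and 6 July. A contig near 0 in the later libraries shows little error there, whatever its levels on 10 and 22 June. The number above 1353 therefore cannot be read as a count of effects.

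Among the contigs with the smallest p of this test, the gap was mostly on 1 date. GAZW02010111 stood at 1208 FPKM in the pollinated and 1478 FPKM in the unpollinated library on 10 June and at 188 FPKM (pollinated) and 4.43 FPKM (unpollinated) on 22 June, a change in the difference of 5.41 ± 0.26 log2 units. GAZW02041248 stood at 106 FPKM in the pollinated and 2.05 FPKM in the unpollinated library on 10 June and at 460 FPKM (pollinated) and 579 FPKM (unpollinated) on 22 June, a change of -5.46 ± 0.16. GAZW02064759 stood at 98.0 FPKM in the pollinated and 2.41 FPKM in the unpollinated library on 10 June and at 223 FPKM (pollinated) and 392 FPKM (unpollinated) on 22 June, a change of -5.67 ± 0.17. GAZW02023510 stood at 0.0425 FPKM in the pollinated and 20.0 FPKM in the unpollinated library on 10 June and at 5.45 FPKM (pollinated) and 0.0140 FPKM (unpollinated) on 22 June, a change of 7.0 ± 0.30. In the later megagametophyte libraries GAZW02023510 stood at 0.0140 to 0.0281 FPKM and GAZW02010111 at 0.0425 to 0.283 FPKM. The error of these contigs was thus taken from levels near 0. Summed with the contig of the following number, GAZW02023510 stood at 45.9 FPKM (pollinated) and 39.9 FPKM (unpollinated) on 10 June. On 22 June this sum was 60.6 FPKM (pollinated) and 59.6 FPKM (unpollinated). All 4 contigs with the smallest p had a limma adjusted p of 0.514 and did not pass. The first 3 show the 2 courses described above: GAZW02041248 and GAZW02064759 were low in unpollinated megagametophytes of 10 June alone among the 8, and GAZW02010111 was abundant on 10 June and near 0 in both states from 30 June on.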

How the data were processed

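Per the labels' protocols, unstranded paired-end libraries were made from polyA RNA and sequenced with 4 indexed libraries a lane, and which libraries shared a lane is not stated there. Bowtie 1.0.1 and RSEM 1.2.12 are among the tools in the submitters' processing notes, which state no role. The authors deposited log values of 0.01 to 12.28 for 54889 contigs, taken to be log2(FPKM + 1). Neither base nor offset is stated, so every FPKM level depends on this choice. Whether the libraries were brought to a common distribution before deposit is not stated either. Contigs low in all 10 libraries are not in the table, since each reached 1.01 in 1 library or more. Reads and depth are unknown, so no counting error is given, and how reads shared by similar contigs were divided is not shown. Levels under 0.1 FPKM, the low end of the table, held 14709 to 19231 contigs in each of the 4 libraries, and log2(FPKM + 1) differences against them depend on the pseudocount.

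Tests were those of limma 3.58.1 (R 4.3.3), moderated by eBayes with a trend, with a pseudocount of 1 FPKM, a mean of 1 FPKM or more and a Benjamini-Hochberg adjusted p under 0.05. The fits were tested on simulated data. Libraries were paired by the date in their labels. As no group has a second library, p-values measure only how the pollination difference varies between dates. Summaries used Python 3.11.15, numpy 2.4.6, pandas 2.3.3, scipy 1.17.1 and matplotlib 3.10.9. The comparison, lists and tests were chosen with earlier results of these data known. The naming rule took at most 2 contigs a direction in each comparison: at single dates the largest difference and the highest level, over both dates those with the largest value of the smaller difference, and in limma the smallest p where none passed. The alternatives covered the pseudocount, the filter, the fold, 2 rescalings, the eBayes trend, fits not paired by date and fits with a library left out.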

Additional observations from a re-analysis of the deposited data

Results flagged for a closer look

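5 contigs named above were 2-fold or more apart in opposite directions on the 2 dates. The change in pollinated minus unpollinated, 22 June less 10 June, was -7.88 log2 units for GAZW02021741 (-3.66 on 22 June, 4.22 on 10 June), -7.61 for GAZW02069369 (-3.64 and 3.97), 8.28 for GAZW02069368 (3.76 and -4.52), 8.0 for GAZW02068526 (4.54 and -3.46) and 7.0 for GAZW02023510 (2.67 and -4.33). In the limma test of this change over 8 libraries none passed, with adjusted p of 0.594, 0.576, 0.621, 0.582 and 0.514 in the same order.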

How the results depend on the processing

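Counts of contigs are given as higher and lower in pollinated megagametophytes on 10 June, then higher and lower on 22 June, then the same and opposite directions on both dates. At 4-fold they were 164, 66, 194, 38, 11 and 7. With a minimum of 1 FPKM for the higher library they were 2146, 2622, 1913, 1432, 366 and 370, and with one of 50 FPKM 60, 23, 123, 12, 6 and 0. With a pseudocount of 5 FPKM they were 275, 148, 365, 73, 18 and 16. Summed over contigs up to 5 numbers away, 95, 29, 151, 18, 2 and 3 of the contigs stayed 2-fold or more apart. A pseudocount of 0.1 FPKM, quantile normalization and centring each date on its median left each of the 6 counts within 1.5 times. Contigs higher in pollinated megagametophytes were the majority on 22 June under all of these settings, and on 10 June under all but the minimum of 1 FPKM.

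The limma counts were 0 under every alternative run, including 0 with no replicate block (libraries not paired by date), where 240 contigs had an unadjusted p under 0.05, 0 with all 8 megagametophyte libraries, where 1187 did, and 0 without any 1 of the 4 libraries, where 156 to 686 did. Leaving out a library was combined with no block for date, since no residual degree of freedom is left otherwise, and the test of the change between dates was not run with a library left out for the same reason. Adjusted p of the named contigs over the alternatives ran from 0.306 to 1.0 over both dates and from 0.159 to 0.498 for the change between dates. Of 203 values of named contigs under alternatives, 147 stayed close (within 1.5 times, or on the same side of the limma threshold), 56 moved further, and 0 of those 2-fold or more apart turned round, while under quantile normalization 3 differences within 2-fold changed sign. Among the 56, the difference of GAZW02022487 on 10 June went from -1.02 to 0.0 log2 units under quantile normalization. Levels near the low end of the table set the size of the widest differences: the difference of GAZW02024469 on 10 June was 8.62 with a pseudocount of 0.1 FPKM and 3.59 with one of 5 FPKM, and over both dates GAZW02094053 differed by 3.1 to 6.58 log2 units over the alternatives.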
